A study of Homo sapiens with 9 samples.

Results

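The regions described here lay within 10 kb of 6 human genes: EZH2, EZH1, EED, SUZ12, JARID2 and KDM6B. They were chosen by position alone, as every listed region sharing at least 1 bp with the gene's hg19 interval widened by 10 kb on both sides, and numbered 84 of the 335291 regions in 6 lists. The libraries came from chromatin immunoprecipitation and sequencing of LNCaP cells, an established human prostate cancer line that depends on the androgen receptor, with antibodies against EZH2, H3K27ac and H3K27me3. Each target was measured in cells labelled plko.1, the name of a lentiviral vector for short hairpins and here called control, and in cells labelled shEZH2, which carried a knockdown lentivirus against EZH2 and, per the labels, were fixed after 2 to 3 days. Both groups were grown in serum-containing medium, and each combination of target and group was 1 library, so no replicate spread was available and no test was run. The study, by its title, was about EZH2 as an activator that needs neither Polycomb nor methylation. Of the 9 samples, 3 were not analysed here. The knockdown itself was not measured in these libraries, and the EZH2 lists held 23060 peaks in control and 9493 in shEZH2.

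Polycomb repressive complex 2 places methyl groups on lysine 27 of histone H3. EZH2 and its relative EZH1 are the alternative catalytic subunits, EED reads the finished mark and stimulates the enzyme, and SUZ12 holds the complex together. JARID2 is an accessory subunit that helps bring the complex to chromatin and tunes its activity. KDM6B, also known as JMJD3, is a demethylase that removes the same mark. H3K27me3 is typical of silenced chromatin. The acetylated form of this lysine, H3K27ac, is typical of promoters and enhancers in use. EZH2 is abundant in advanced prostate cancer.

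Signal is given as normalised tags, the sequenced tags of a region after the authors' scaling of each library to 10000000. Total tags ran from 13331155 to 33289172 over the 6 libraries. Intervals are 95% exact Poisson for tags and exact binomial for shares and ratios. They cover counting error only, and tags without molecular identifiers need not be independent molecules. The control H3K27ac and H3K27me3 lists were called with windows of 150 bp and the shEZH2 lists with windows of 1000 bp at a looser threshold. For H3K27ac a call needed 34.4 normalised tags per kb in control and 9.47 in shEZH2. Widths and numbers of histone regions therefore cannot be compared between the groups.

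All 6 genes carried H3K27ac over their starts and none carried H3K27me3 within 10 kb in control cells. The H3K27ac lists held 38 regions at the 6 genes in control and 36 in shEZH2. The EZH2 lists held 6 and 3, and the H3K27me3 lists 0 and 1. Per Mb searched this was 60.2 control H3K27ac regions, against 29.1 over the genome size in the file headers. For H3K27me3 it was 0 against 43.1 per Mb, and for control EZH2 peaks 9.51 against 11.5. The genes were picked by name, so these densities describe them and test nothing.

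**Figure D1:**
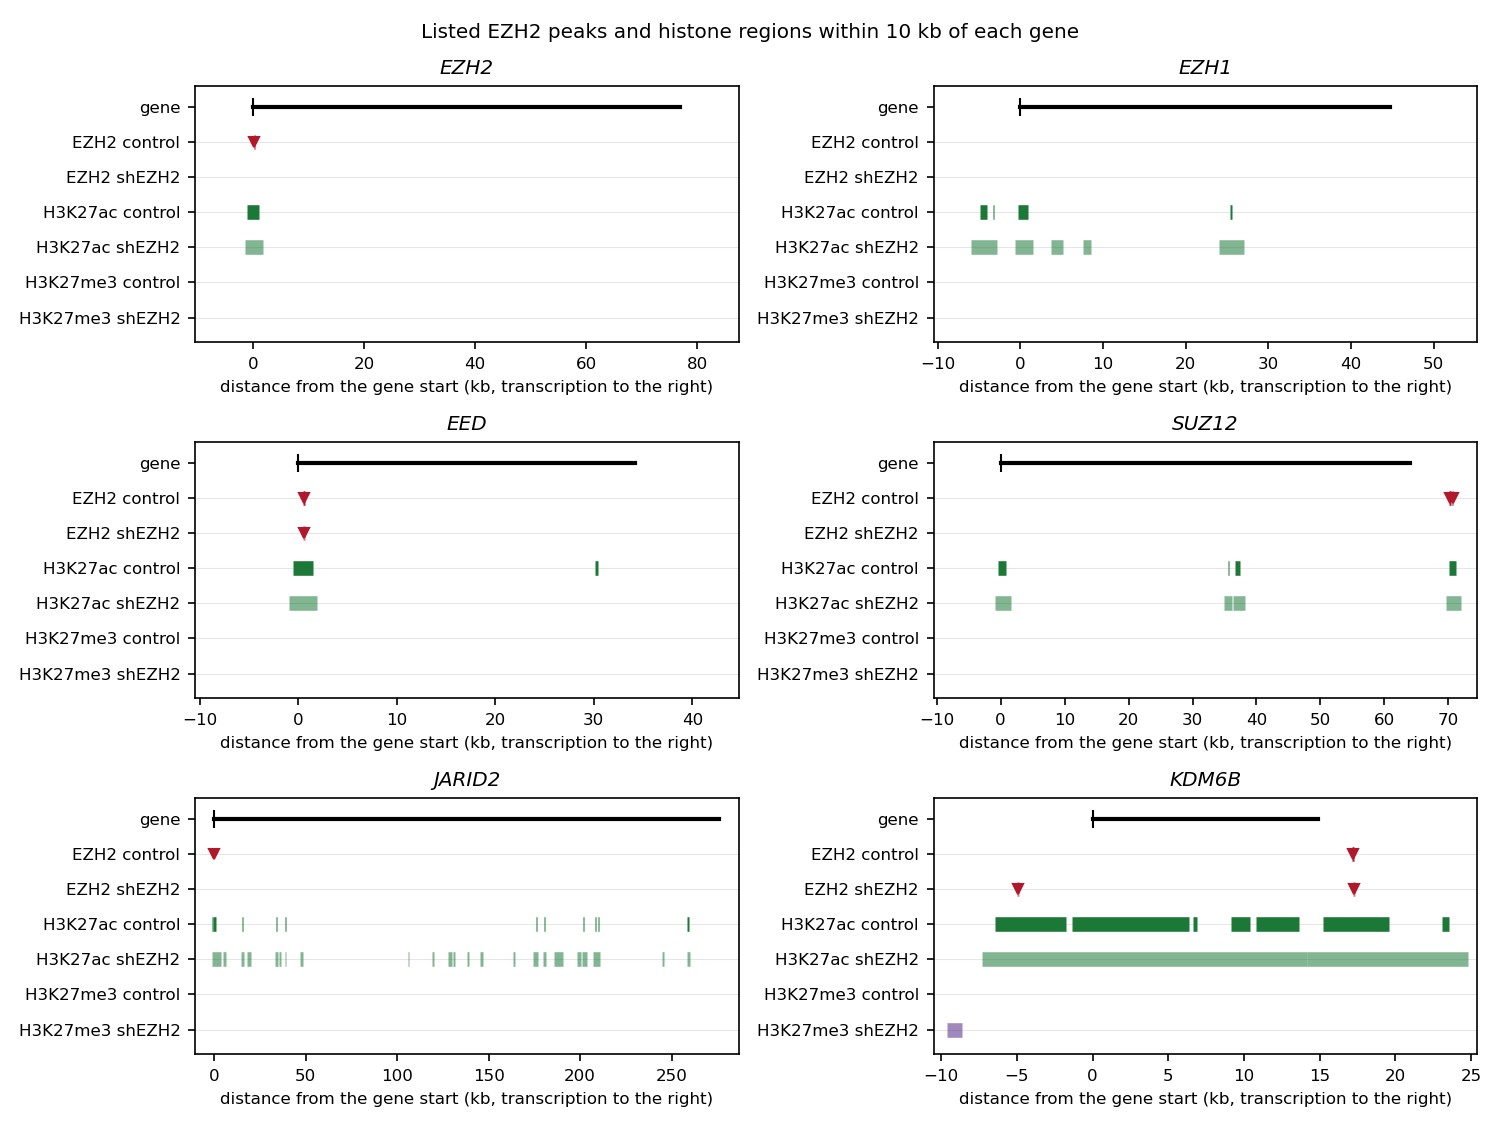
Regions of the 6 lists within 10 kb of each gene, by distance from the gene start in kb with transcription to the right. Each bar is a listed region drawn to scale, triangles mark the centres of EZH2 peaks, and the black line is the gene. H3K27ac lies over every start, and the only H3K27me3 region is the one upstream of KDM6B in shEZH2.

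EZH2 peaks were listed at the start of the EZH2 gene, at the start of EED and at the start of JARID2 in control cells. At the EZH2 gene, which runs on the minus strand of chromosome 7 from 148504464 to 148581441, the peak lay from 148581171 to 148581353, 88 to 270 bp inside the gene. It held 12.8 normalised tags (17 counted tags, interval 7.43 to 20.4) and was 13.82-fold above its surrounding 10 kb by the authors' deposited fold. At EED, on the plus strand of chromosome 11 from 85955586 to 85989785, the peak from 85956067 to 85956249 lay 481 to 663 bp inside the gene, with 8.25 tags (interval 4.12 to 14.8) and a deposited fold of 14.75. At JARID2, on the plus strand of chromosome 6 from 15246206 to 15522273, it lay from 15245962 to 15246144, 62 to 244 bp before the start, with 10.5 tags (interval 5.74 to 17.6) and a deposited fold of 15.98. By tags, the EZH2 peak lay above the median of all control peaks, 10.5, the EED peak below it and the JARID2 peak at it. Their ranks in the list of 23060 were, in this order, 6865, 16086 and 10030. The deposited folds of these peaks were above the median of 10.06 over all control peaks on H3K27ac alone and of 8.25 over all control peaks. On H3K27me3 alone the median was 7.04, so this fold tended to be higher at acetylated sites. It compares a peak with its surroundings in the same library, and no input sample entered the calls. Counted tags were 17 at EZH2, 11 at EED and 14 at JARID2. Whether these peaks exceed the background of acetylated starts was not tested.

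The promoters of these 3 genes and of SUZ12, which had H3K27ac but no EZH2 peak at its start, are shown to set the starts with a listed EZH2 peak beside one without it. Each is RefSeq's window of 300 bases in GRCh38.p14, from 250 before to 50 after the most upstream listed start, at chr7:148884242-148884541 (minus strand), chr11:86244503-86244802, chr6:15245819-15246118 and chr17:31936757-31937056 (plus strand). The hg19 peak positions were not carried over to GRCh38, so a window need not coincide with a peak. Counted from the hg19 starts, the EZH2 peak lay 88 to 270 bp and the EED peak 481 to 663 bp inside the gene. The windows end 50 bases after the listed start. Capitals mark the CCAAT box (CCAAT, bound by NF-Y), the GC box (GGGCGG, bound by the SP family) and E2F forms (TTTGGCGC or TTTCCCGC), searched on both strands, with overlapping copies counted separately.
EZH2: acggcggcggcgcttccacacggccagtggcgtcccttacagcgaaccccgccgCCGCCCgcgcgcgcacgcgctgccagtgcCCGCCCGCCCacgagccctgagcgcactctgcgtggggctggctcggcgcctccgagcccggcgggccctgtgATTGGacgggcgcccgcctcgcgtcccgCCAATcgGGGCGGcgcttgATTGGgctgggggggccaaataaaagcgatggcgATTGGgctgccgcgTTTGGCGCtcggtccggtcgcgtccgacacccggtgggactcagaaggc
EED: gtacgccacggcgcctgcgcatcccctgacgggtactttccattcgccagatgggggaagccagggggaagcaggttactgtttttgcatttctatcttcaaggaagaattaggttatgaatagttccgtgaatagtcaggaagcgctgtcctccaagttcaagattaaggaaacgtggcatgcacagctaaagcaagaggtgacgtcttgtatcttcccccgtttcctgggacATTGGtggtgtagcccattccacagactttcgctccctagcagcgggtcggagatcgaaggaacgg
JARID2: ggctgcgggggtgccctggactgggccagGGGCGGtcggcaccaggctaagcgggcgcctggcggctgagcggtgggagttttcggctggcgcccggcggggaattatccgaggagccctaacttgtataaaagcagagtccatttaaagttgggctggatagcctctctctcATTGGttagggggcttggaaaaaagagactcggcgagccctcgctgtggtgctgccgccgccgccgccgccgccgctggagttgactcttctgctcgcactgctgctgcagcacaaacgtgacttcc
SUZ12: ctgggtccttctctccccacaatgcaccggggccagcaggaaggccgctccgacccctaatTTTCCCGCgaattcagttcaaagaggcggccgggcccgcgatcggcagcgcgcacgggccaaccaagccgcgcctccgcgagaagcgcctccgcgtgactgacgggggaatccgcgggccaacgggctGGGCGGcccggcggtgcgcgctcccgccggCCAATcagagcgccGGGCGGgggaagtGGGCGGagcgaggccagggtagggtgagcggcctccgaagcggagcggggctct

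The EZH2 promoter window held 4 CCAAT boxes, 4 GC boxes and 1 E2F form. The SUZ12 window held 1 CCAAT box, 3 GC boxes and 1 E2F form. The JARID2 window held 1 CCAAT box and 1 GC box, and the EED window 1 CCAAT box alone. EZH1 and KDM6B also had no control EZH2 peak at their starts. Their windows, not printed here, held 1 and 5 GC boxes and no CCAAT box or E2F form. Of 35116 RefSeq promoter windows of the same length, 34.6% held a CCAAT box, 45.0% a GC box and 2.27% an E2F form. A match describes these letters and is no evidence that a factor binds. The windows also differed in CpG content, at 46 CpG in EZH2, 40 in SUZ12, 30 in EZH1, 24 in JARID2 and 16 in EED, with a median of 14 over all windows. KDM6B held 24. These values are for the most upstream listed start, and EZH2, JARID2 and KDM6B each have 2. The window at the second start held 45 CpG, 1 GC box and no CCAAT box at EZH2, 806 bp away. At JARID2, 2786 bp away, it held 40 CpG, 6 GC boxes and no CCAAT box. At KDM6B, 5700 bp away, it held 2 CpG and none of these motifs.

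The remaining control EZH2 peaks lay beyond the ends of SUZ12 and KDM6B. SUZ12 lies on the plus strand of chromosome 17 from 30264044 to 30328057. Its 2 peaks were centred 70.3 and 70.7 kb from its start and past its end, from 30334226 to 30334408 with 12 tags (interval 6.86 to 19.5) and from 30334641 to 30334823 with 9.75 tags (interval 5.19 to 16.7). Both sat in 1 control H3K27ac region of 76.3 tags. In GRCh38 the next gene with a full name after SUZ12 is LRRC37B, and whether these peaks lie at its start was not determined here. KDM6B lies on the plus strand of chromosome 17 from 7743222 to 7758118. Its control peak lay from 7760329 to 7760511, 2.21 kb past its end, with 9 tags (interval 4.65 to 15.7) and a deposited fold of 6.44, the lowest of the 6. It sat in an H3K27ac region of 801.1 tags on the side where GRCh38 places TMEM88 and NAA38. So 3 of the 6 control peaks lay at the starts of the genes they were counted with, and EZH1 had none within 10 kb.

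Each control EZH2 peak at these genes lay on H3K27ac alone. This was 6 of 6 (interval 54.1% to 100%), against 31.9% of all control EZH2 peaks. On H3K27me3 alone it was 0 of 6 (interval up to 45.9%), against 41.7% of all. That 0 follows from the lack of any control H3K27me3 region within 10 kb of these genes and is no separate result. The intervals treat the peaks as independent, though the 2 beyond SUZ12 shared 1 H3K27ac region. None lay on both marks or on neither, classes that held 2.52% and 23.9% of all control peaks. In shEZH2 cells, by the marks of those cells, 3 of 3 peaks lay on H3K27ac alone (interval 29.2% to 100%), against 26.0% of all shEZH2 peaks. H3K27me3 alone held 54.1% of all shEZH2 peaks, both marks 13.7% and neither 6.26%.

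After knockdown, EZH2 peaks were listed again at EED and beyond KDM6B but not at the EZH2, JARID2 and SUZ12 genes. Of the 6 control peaks, 2 overlapped a shEZH2 peak (33.3%, interval 4.33% to 77.7%), against 23.1% of all control peaks, 18.6% of those on H3K27ac alone and 15.7% of the 4620 control peaks on H3K27ac alone in the same range of tags, 8.25 to 12.8. At EED the shEZH2 peak from 85956087 to 85956237 held 8.96 tags (13 counted tags), so the log2 ratio to control was 0.12 (interval -1.16 to 1.42). Beyond KDM6B the shEZH2 peak from 7760411 to 7760561 held 8.27 tags (12 counted tags), a log2 ratio of -0.12 (-1.41 to 1.16). Peak windows were wider in control, and per kb of window these ratios were 0.40 and 0.16. These 2 were the weakest of the 6 control peaks. The 4 that were not listed again held 9.75 to 12.8 tags.

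The counts behind these calls were small. A shEZH2 call needed 6.89 normalised tags, which is 10 counted tags, and the interval of 5 of the 6 control peaks reached below that. The exception was the peak at the EZH2 gene's own start, at 7.43, but control windows were wider. Per kb its lower bound was 40.6 against a shEZH2 threshold of 45.6, and all 6 intervals reached below that. A peak could also be dropped by the local filter, which removed 5815 of 15373 candidates in shEZH2. The shEZH2 tags at the EZH2, JARID2 and SUZ12 peaks are not known, since the lists give tags only for called peaks. The lists therefore cannot tell a loss of EZH2 there from a count just short of a call. The nearest shEZH2 peak was 144 kb from the control peak at the EZH2 gene, 259 kb from those of SUZ12 and 1034 kb from that of JARID2.

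**Figure D2:**
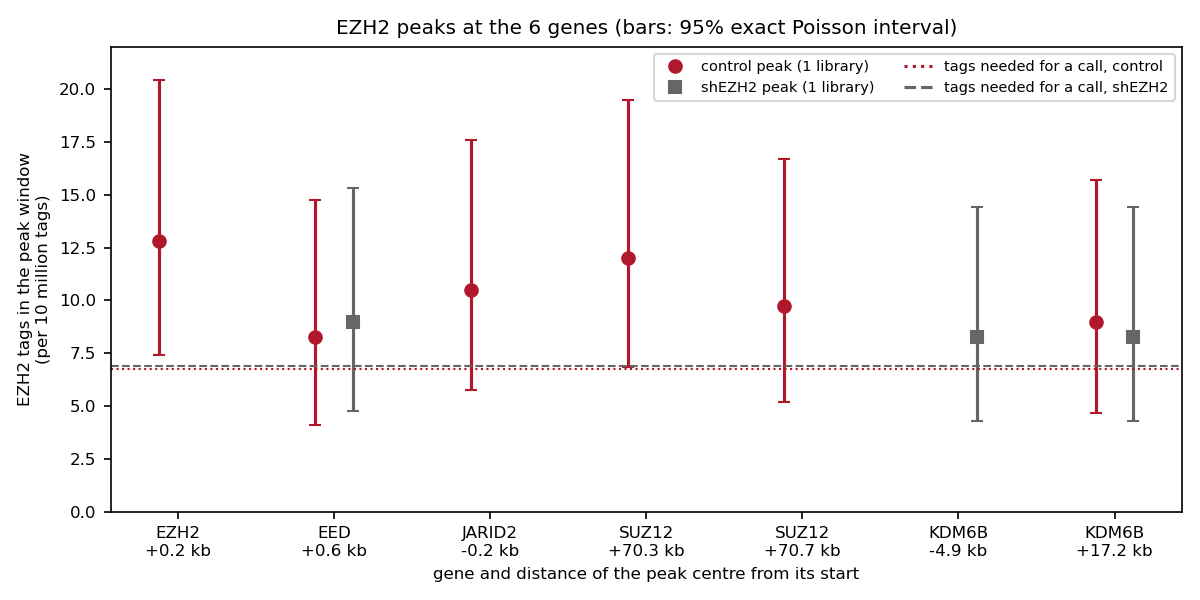
EZH2 tags per 10000000 in each listed peak window at the 6 genes, with 95% exact Poisson intervals. Circles are control and squares shEZH2, 1 library each, and the lines are the tags needed for a call, 6.75 in control and 6.89 in shEZH2. Control and shEZH2 values at EED and at the downstream KDM6B peak lie within each other's intervals.

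One EZH2 peak was listed in shEZH2 alone. It lay 4868 to 5018 bp before the KDM6B start, from 7738204 to 7738354, with 8.27 tags (interval 4.27 to 14.4) and a deposited fold of 6.81. The position is inside a control H3K27ac region of 1013.9 tags. The interval reached below the 6.75 tags that a control call needed. Of all shEZH2 peaks, 56.2% overlapped a control peak, and 2 of the 3 at these genes did.

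H3K27me3 was far from most of these genes. In control the nearest listed region was 16.2 kb from EZH1, 91.0 kb from SUZ12, 99.2 kb from KDM6B, 162 kb from EZH2, 263 kb from EED and 358 kb from JARID2. A control call needed 3.91 normalised tags in 150 bp. In shEZH2, with the wider and looser calls, 1 region came within 10 kb, from 7733630 to 7734630 and 8.59 kb upstream of KDM6B. It held 9.91 tags, against a threshold of 9.53, and only 36.8% of all shEZH2 H3K27me3 regions overlapped a control region. No H3K27me3 region was listed over any of the 6 gene bodies or starts in either group. No ratio of H3K27me3 could be formed, since no region at these genes was listed in both groups.

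The EZH2 peaks just outside the 10 kb limit were near EZH1. It lies on the minus strand of chromosome 17 from 40852293 to 40897071 and had no EZH2 peak inside the limit. Just outside, 16.2 kb upstream, a control EZH2 peak from 40913274 to 40913456 held 9.75 tags. It lay within a control H3K27me3 region from 40913256 to 40913527 with 8.11 tags. The shEZH2 H3K27me3 region there, from 40912805 to 40914056, held 20.2 tags, and no shEZH2 EZH2 peak overlapped it. This region was much wider than the control one and came from the looser calls. Its larger tag sum therefore does not show a rise in H3K27me3. GRCh38 places RAMP2 next on that side. A further peak in shEZH2 alone, with 6.89 tags, lay 14.2 kb past the gene's end. Nearer the limit, a shEZH2 H3K27ac region of 28 tags lay 12.05 kb past the KDM6B end. The regions farthest out within the limit were the H3K27me3 region at 8.59 kb from KDM6B, a control H3K27ac region of 14.3 tags at 8.17 kb from it and the SUZ12 peaks at 6.17 and 6.58 kb from that gene.

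H3K27ac over the starts differed many-fold between the genes. To compare the groups, overlapping regions of both lists were joined and the tags of each list summed. In control the joined region held 2735.4 tags at KDM6B, 418.6 at EED, 300.5 at EZH2, 299.3 at JARID2, 95.2 at EZH1 and 91.8 at SUZ12. Joining summed 5 control regions at KDM6B and 4 at JARID2. The single control region over the start held 1484.7 tags at KDM6B and 213.3 at JARID2. Per kb of listed region the control order was EED with 213 tags (interval 198 to 229), KDM6B with 163 (158 to 168), EZH2 with 142 (130 to 155), JARID2 with 116 (106 to 126), EZH1 with 76.7 (65.5 to 89.3) and SUZ12 with 72.9 (62.0 to 85.1). Neighbours in this order were separate by counting error except EZH1 and SUZ12. The single control regions over the KDM6B and JARID2 starts held 193 and 157 tags per kb, which would put JARID2 above EZH2. In shEZH2 the per-kb order of the joined regions was the same, but EED, with 136 (127 to 146), overlapped KDM6B, with 128 (125 to 131). EZH2, with 74.0 (67.9 to 80.6), likewise overlapped JARID2, with 69.8 (65.1 to 74.8). EZH1 followed with 55.6 and SUZ12 with 38.0. The 2 catalytic subunit genes thus differed, with 1.24 kb listed at EZH1 and 2.12 kb at EZH2.

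EZH2 protein was not listed at every strong H3K27ac start. Among control H3K27ac regions with tags within 1.5-fold of the one at the EZH2 start, 45.1% held an EZH2 peak. The same share was 1648 of 3298 regions (50%) for EED and 37.9% for JARID2, and each of these starts held a peak. It was 20.6% for EZH1 and 19.6% for SUZ12, whose starts held none. For the KDM6B start region, from 7741889 to 7749591 with 1484.7 tags, the share was 59.3% of 209 regions, and it held none. Its rank by tags was 90 of 58134. The EZH2 peaks counted with KDM6B lay in the neighbouring regions instead. Over all control H3K27ac regions the share was 12.3%. In shEZH2, where fewer EZH2 peaks were listed, the shares were 12.6% for EZH2, 16.6% for JARID2, 6.41% for EZH1 and 5.37% for SUZ12, whose start regions held no peak. They were 17.1% for EED and 40.4% for KDM6B, whose start regions did. The shEZH2 region over the KDM6B start took in the upstream control region.

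After knockdown, summed H3K27ac was lower at the EZH2 start, and the other 5 starts were closer to control or higher. At EZH2 it was 300.5 tags in control (interval 275 to 327) and 240.8 in shEZH2 (221 to 262), a log2 ratio of -0.32 (-0.50 to -0.14), or 0.801-fold. The shEZH2 region contained the control region and was 3.25 kb wide against 2.12 kb, so the wider call held fewer tags. Among 21388 joined regions of at least 50 tags in which the shEZH2 region contained the control ones, 18.2% held fewer tags in shEZH2. At EED it was 418.6 and 383.8 tags, a log2 ratio of -0.13 (-0.27 to 0.019). These 2 of 6 starts had fewer tags, and the intervals of control and shEZH2 overlapped at EED but not at EZH2.

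The other starts did not fall by this measure. KDM6B held 2735.4 and 2744.5 tags, a log2 ratio of 0.0048 (-0.050 to 0.060). SUZ12 held 91.8 and 97.4, a ratio of 0.085 (-0.22 to 0.39). JARID2 held 299.3 and 363.0, a ratio of 0.28 (0.12 to 0.44). EZH1 held 95.2 and 116.8, a ratio of 0.30 (0.0083 to 0.59). The median of the 6 was 0.045, against 0.33 over 21929 joined regions of at least 50 tags. Scaling both libraries to the tags inside listed regions moved each ratio by -0.35, which turned the median to -0.31 and the signs at EZH1, SUZ12, JARID2 and KDM6B. Listed regions held 46.1% of control tags and 59.0% of shEZH2 tags. The shEZH2 share comes from the wider and looser calls, so this scaling is not neutral either. Per kb of listed region the median was -0.69, with all 6 negative, against -0.81 over the same joined regions. Both scalings lowered all 6 ratios, so a ratio that was already negative could not change sign.

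**Figure D3:**
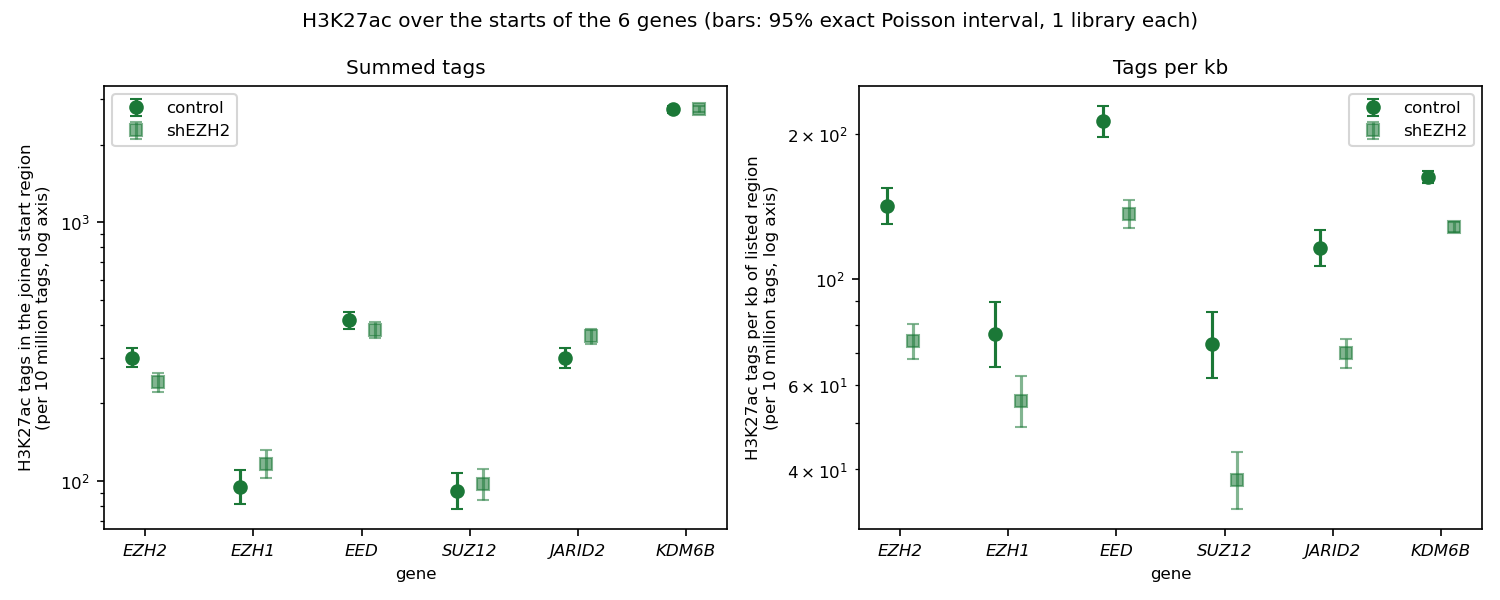
H3K27ac over the starts of the 6 genes, as summed tags of the joined region (left) and as tags per kb of listed region (right), both per 10000000 tags on log axes. Circles are control and squares shEZH2, 1 library each, with 95% exact Poisson intervals. Summed tags are lower in shEZH2 at EZH2 and EED, and tags per kb are lower at all 6 genes, where shEZH2 regions are 1.28 to 2.04 times as wide.

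The ratio at the EZH2 start was low for a region of its strength. Among 4717 joined regions with control tags within 1.5-fold of it, the median log2 ratio was 0.15, 5.07% had a lower ratio, and the 5th percentile was -0.32. EED lay above 16.4% of its 3339 like regions, SUZ12 above 25.9% of 5921, EZH1 above 48.1% of 5967, KDM6B above 61.7% of 94 and JARID2 above 70.1% of 4730. Per kb, however, EZH2 lay above 28.0% of its like regions and EED above 62.3%, so how low they lay depended on the measure. The per-kb places were 40.8% for SUZ12, 51.6% for JARID2, 84.0% for KDM6B and 84.7% for EZH1. The order of the genes thus changed, with EZH2 lowest in both. No start changed by 2-fold in summed tags. Over all joined regions of both lists, 0.315% were at least 2-fold lower in shEZH2 and 31.4% at least 2-fold higher. Of those with at least 50 tags, 0.319% were lower and 17.8% higher by that fold. These shares are of summed tags, and the shEZH2 calls were wider and looser. Over the regions of at least 50 tags the median log2 ratio was 0.33 summed but -0.81 per kb. The shares therefore do not show whether H3K27ac rose or fell after knockdown.

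**Figure D4:**
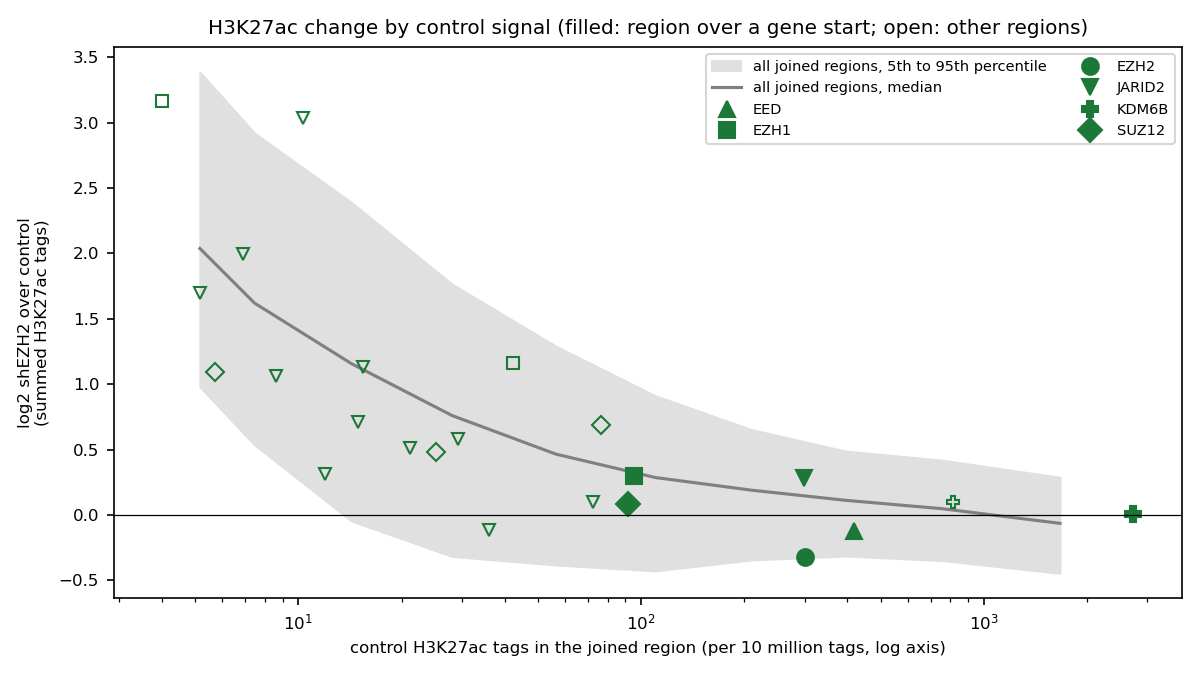
Log2 of shEZH2 over control summed H3K27ac tags against control tags (log axis) for the 23 joined regions at the 6 genes that both lists held. Filled symbols cover a gene start, open ones do not, and the grey band and line are the 5th to 95th percentile and the median of all joined regions. The EZH2 start, at -0.32, lies at the lower edge of the band, and the regions of few control tags lie highest.

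Inside the genes, JARID2 held most of the regions, and it also made up 296 of the 631 kb searched. Its 276 kb carried 20 control H3K27ac regions within the limit of 10 kb, of which 4 joined with the start region in shEZH2. The others had 4.01 to 37.3 tags and fell into a group up to 47.9 kb from the start, a group from 176 to 210 kb and a single region at 259 kb. The strongest away from the start were from 15455689 to 15456448 with 37.3 tags and from 15504773 to 15505776 with 36.1. The latter held 33.4 tags in shEZH2, a log2 ratio of -0.11 (-0.62 to 0.39). None held an EZH2 peak in either group.

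JARID2, with 296 of the 631 kb searched, also held 11 of the 13 H3K27ac regions listed at these genes in shEZH2 alone. EZH1 held the other 2. The strongest was from 15264140 to 15266567 with 37.4 tags, followed by 15444496 to 15446745 with 32.5, 15374045 to 15376179 with 26.2 and 15281366 to 15282890 with 21.2. All 13 held 9.85 to 15.4 tags per kb, below the 34.4 per kb that a control window needed. Of all shEZH2 H3K27ac regions, 59.0% overlapped a control region, and 23 of 36 at these genes did. The highest ratio at a JARID2 region of both lists, 3.04 (2.34 to 3.82) from 15432087 to 15436970, compared 10.3 tags in 302 bp with 84.8 in 4884 bp.

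At EED a region was listed in control alone. It lay 30.2 kb inside the gene, from 85985663 to 85986006, with 16.6 tags (interval 11.1 to 23.9). Its lower bound exceeded the 9.47 tags that a shEZH2 window needed. Of 11469 control H3K27ac regions with tags within 1.5-fold of it, 98.8% overlapped a shEZH2 region, and over all control regions the share was 97.0%. The other 37 control regions at the 6 genes were listed again.

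EZH1 and SUZ12 each had further regions beside the start. Upstream of EZH1, around 4.39 kb from its start, control listed 2 regions with 42.4 tags in all and shEZH2 1 region with 94.7, a log2 ratio of 1.16 (0.77 to 1.56). The listed length there was 949 bp in control and 3229 bp in shEZH2, and per kb the ratio was -0.61. At the region beyond SUZ12 where control EZH2 peaks lay, H3K27ac was 76.3 tags in control and 123.1 in shEZH2, a log2 ratio of 0.69 (0.39 to 1.00), and -0.35 per kb. Inside SUZ12 the joined region from 30300405 to 30302256 held 25.2 and 35.2 tags. Their signs therefore depended on whether tags were divided by width.

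KDM6B lay in the broadest acetylated stretch of the 6. Control listed 7 H3K27ac regions over 21.6 kb, 62.0% of the 34.9 kb searched, with 3550.8 tags. In shEZH2, 2 regions covered 91.8% with 3618.9 tags. The larger, from 7735947 to 7757375, ranked 48 of 59233 by tags and 129 by width. At the other 5 genes, control H3K27ac covered 2.18% to 4.26% of the searched sequence. Joined regions at KDM6B differed little between groups in summed tags, with log2 ratios of 0.0048 over the start and 0.10 (0.0012 to 0.20) over the downstream part. Per kb these were -0.35 and -1.04.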

How the data were processed

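The submitters' processing notes name BWA 0.6.1, HOMER 4.1 and hg19. Regions were called in each library alone, without input, per the file headers. The deposited signal is tags scaled by the authors to 10000000 per library, and counted tags were recovered from it with the library totals in the headers. The deposited score, a caller's value unscaled for depth, served only for the upper 50% and equal-length alternatives. The deposited fold, a ratio over the local 10 kb, is quoted as given. The clonal ratio, the focus fraction and the local p-value that the authors deposited were not used.

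Samples were grouped by title. With 1 library a group, no test was run. Gene intervals came with the choice of genes, and strands, neighbours and promoter sequences from RefSeq's GRCh38.p14 tables, where all 6 genes matched. No coordinates were converted. As no hg19 annotation was used, LNCaP markers and 9 other pathway genes were not counted. The members, the rule for named regions (every EZH2 peak, the start region and the strongest regions) and the promoter motifs were chosen with earlier results of these data known. Overlap and ratio code was tested on simulated data. Comparisons with regions of like tags were added after the data were seen. Scripts ran in Python 3.11.15 with scipy 1.17.1, pandas 2.3.3, numpy 2.4.6 and, for plots, matplotlib 3.10.9.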

Additional observations from a re-analysis of the deposited data

How the results depend on the processing

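With 10 alternatives, 57 values were recomputed. No paired analysis was possible because each group held 1 library, and no replicate could be left out. The share of control EZH2 peaks on H3K27ac alone was 100% and on H3K27me3 alone 0% under each alternative run. Genes not widened left 2 control and 1 shEZH2 EZH2 peaks and 0 shEZH2 H3K27me3 regions, since fewer regions qualify. With 5 kb, 0 such H3K27me3 regions were left. The upper 50% by score left 1 control and 0 shEZH2 EZH2 peaks, 21 control and 19 shEZH2 H3K27ac regions and 0 shEZH2 H3K27me3 regions. The percentage listed again in shEZH2 was then 0%, which is 0 of 1 peak. It was also 0% with both EZH2 lists cut by score to equal length, which trims the longer control list. Peaks of low score drop out in such cuts. The peaks listed again in the main setting scored 11 at EED and 9 beyond KDM6B, against 17 at the EZH2 gene. Neither 0% therefore shows a further loss of EZH2. The median log2 ratio of H3K27ac at the starts reversed to -0.31 when scaled to tags in listed regions and to -0.69 per kb. In that order the ratios reversed to -0.059 and -0.46 at EZH1, -0.27 and -0.94 at SUZ12, -0.076 and -0.73 at JARID2 and -0.35 and -0.35 at KDM6B. They became -0.67 and -0.94 at EZH2 and -0.48 and -0.64 at EED. Per kb, the wider shEZH2 regions enter by construction, and the scaling to tags in listed regions likewise depends on the looser shEZH2 calls. A ratio of H3K27me3 had no value under any setting. EZH2 peaks of 11 to 17 counted tags limit what knockdown can show here.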
